A study of Mus musculus with 4 samples.

Results

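Transcripts of 10 transcription regulators of blood formation were examined: the ETS factor genes Spi1, Spib, Fli1, Erg and Etv6, the Runx factor genes Runx1, Runx2 and Runx3, their partner gene Cbfb, and the corepressor gene Cbfa2t3. The members were chosen by gene symbol. Probe sets naming 1 of them alone numbered 21 of 45037 on the array and covered 9 of the 10 genes, out of 18193 genes measured. No probe set named Runx2 in the annotation used, so its expression was not analysed here. The brightest probe set over the 4 arrays stands for each gene, and the other probe sets are described beside it.

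RNA came from lineage-negative, cKit-positive, Sca1-positive (LSK) bone marrow cells, in which blood stem cells and early progenitors are found. The WT mice were Ncstn flox/flox without cre, and the Ncstn KO mice were Ncstn flox/flox Mx1-cre+ littermates. Ncstn encodes nicastrin, a subunit of gamma-secretase, the protease complex that releases the active part of Notch receptors. Mx1-cre is a recombinase transgene under an interferon-responsive promoter, which is active in blood cells and also in other tissues. Mice of both groups had been given polyIC, an interferon inducer, as 3 injections of 20 µg per g of body weight starting at 14 days of age, and were killed 4 weeks after that, 6 weeks old. There were 2 mice per genotype, 1 female and 1 male, and 1 array for each mouse. The controls carried no cre, so loss of Ncstn and presence of the transgene cannot be told apart.

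ETS factors bind DNA at a GGAA core through a shared winged-helix domain. Spi1 encodes PU.1, needed for granulocytes, macrophages and lymphocytes, and Spib encodes its closest relative, used in B cells and plasmacytoid dendritic cells. Fli1 and Erg maintain stem cells and act in megakaryocytes and endothelium, and Etv6 is a repressor required by stem cells in adult marrow. Runx proteins recognise TGTGGT with Cbfb, a subunit that binds no DNA itself and steadies the complex. Cbfa2t3 encodes ETO2, a corepressor found with Tal1, Gata and Lmo2 proteins in stem cell and erythroid complexes.

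The promoters show one feature that the Runx genes share and that the choice of members did not use. RefSeq promoter windows of 300 bases (250 before and 50 after the start, assembly GRCm38.p6) were matched for 8 of the 10 genes, giving 13 windows. No window was available for Spi1 or Fli1, so neither was searched. Each of the 3 Runx genes had 1 window with a pair of RUNX recognition sequences, ACCACA followed after 2 bases by ACCACA, searched on both strands. This spacing was chosen after these sequences had been read. The 30 bases around each pair are shown 5′ to 3′ on the strand of the gene, with the pair in capitals.
Runx1: cataaacaACCACAGAACCACAagttgggt
Runx2: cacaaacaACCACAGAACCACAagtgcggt
Runx3: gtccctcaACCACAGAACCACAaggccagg
These lie at chr16:92826025-92826054 on the minus strand, chr17:44814583-44814612 on the minus strand and chr4:135120503-135120532 on the plus strand. The pieces run from base 21 to 50 after the annotated start for Runx1, from 16 to 45 after it for Runx2, and from 142 to 113 bases before it for Runx3. They share a run of 18 bases, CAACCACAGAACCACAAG. The pair occurs in 7 of 32851 windows of the same length, or 0.0213%, and 1 of the other 4 is the window of Gm16225, which overlaps that of Runx3 on the opposite strand. The single sequence TGTGGT, which each pair contains on the reverse strand, is common, with a match on either strand in 16.8% of windows. The second windows of Runx1 and Runx3 held no match.

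The ETS sequence GGAAGT, searched on both strands, was found in 23.8% of all windows. Among the 8 members with windows, which leave out Spi1 and Fli1, it was found in 1 window each of Cbfb and Cbfa2t3, with 2 matches in each. The pieces with matches, in capitals, show these sites.
Cbfb, upstream: aggcaaggGGAAGTgctgaggaaggagcag
Cbfb, at the start: cggcgagaGGAAGTggcggccgcagccggg
Cbfa2t3: ggataggaGGAAGTtgttgGGAAGTcagac
Their positions are chr8:105170465-105170494 and chr8:105170670-105170699 on the plus strand, and chr8:122699323-122699352 on the minus strand. The longer PU.1 form GAGGAAGT, which contains GGAAGT, was present in the second Cbfb piece and in the Cbfa2t3 piece and in 3.2% of all windows. A match is a stretch of letters and not evidence of binding.

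The arrays were compared first. The targeted gene Ncstn was at a log2 intensity of 9.05 and 8.98 on WT replicates 1 and 2 and at 7.58 and 7.91 on Ncstn KO replicates 1 and 2. That is a change of -1.27 (SE 0.22; limma adjusted p = 0.257). A dimmer Ncstn probe set overlapped between the groups, and the sources used here do not say where either lies relative to the deleted part. Median intensities ran from 71.6 to 79.2 over the 4 arrays. Pearson's r across genes, which are not independent replicates, ran from 0.989 between the Ncstn KO arrays to 0.995 between the WT arrays. Of the stem and progenitor markers, Kit had values of 11.57 to 11.94, Cd34 of 12.77 to 12.81 and Flt3 of 12.36 to 12.66, while no probe set named Ly6a, the gene of Sca1. Neutrophil genes that the lineage sort should remove were also bright on every array, with S100a9 at 13.80 to 13.92 and S100a8 at 13.24 to 13.62, whereas Cd3e of T cells stayed at 4.55 to 5.14. Log2 intensities are used throughout, so that a difference of 1 is a 2-fold difference. Probe sets differ in brightness for reasons other than RNA amount, so levels are compared between arrays and not between genes.

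Over the 4 arrays together all 9 measured genes gave a mean signal above 8.04, the median over genes, although Spib had a mean of 7.83 in Ncstn KO. Etv6, Cbfb, Cbfa2t3 and Runx1 lay at the 99.0th, 97.3rd, 91.0th and 87.8th percentile of gene means. Runx3, Fli1, Erg and Spi1 lay at the 83.2nd, 79.1st, 75.7th and 66.8th percentile, and Spib at the 51.0th. These are places on a scale of probe signal and give no order of transcript amounts.

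Between the genotypes Spib had the largest difference of the set. Spib was 1.66-fold lower in Ncstn KO. Spi1, Runx1 and Fli1 had changes of 0.26, 0.23 and 0.17 on the log2 scale, and the other 5 lay between -0.17 and 0.08. None passed: the limma test with Benjamini-Hochberg adjustment over all 18193 genes called 0 of the 9, at adjusted p from 0.671 to 0.989. Over all genes it also called 0, or 0%, and 1 of the 9 members, Spib, had an unadjusted p under 0.05 (0.032). An unadjusted p under 0.05 was found for 1.84% of all genes as lower and 4.96% as higher. The members had a median change of -0.05, against 0.02 for all genes. Of the members 4 lay above and 5 below WT, and of all 18193 genes 10150 lay above and 8041 below. The arrays of the groups did not overlap for 4 of 9 members, 2 higher and 2 lower. The same held for 34% of all genes, so that this count lies near the background. A difference of at least 2-fold without overlap was found for 0 of the 9 and for 1.71% of all genes. The smallest two-sided p that an exact permutation test of a single gene allows in this design is 0.333.

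**Figure D1:**
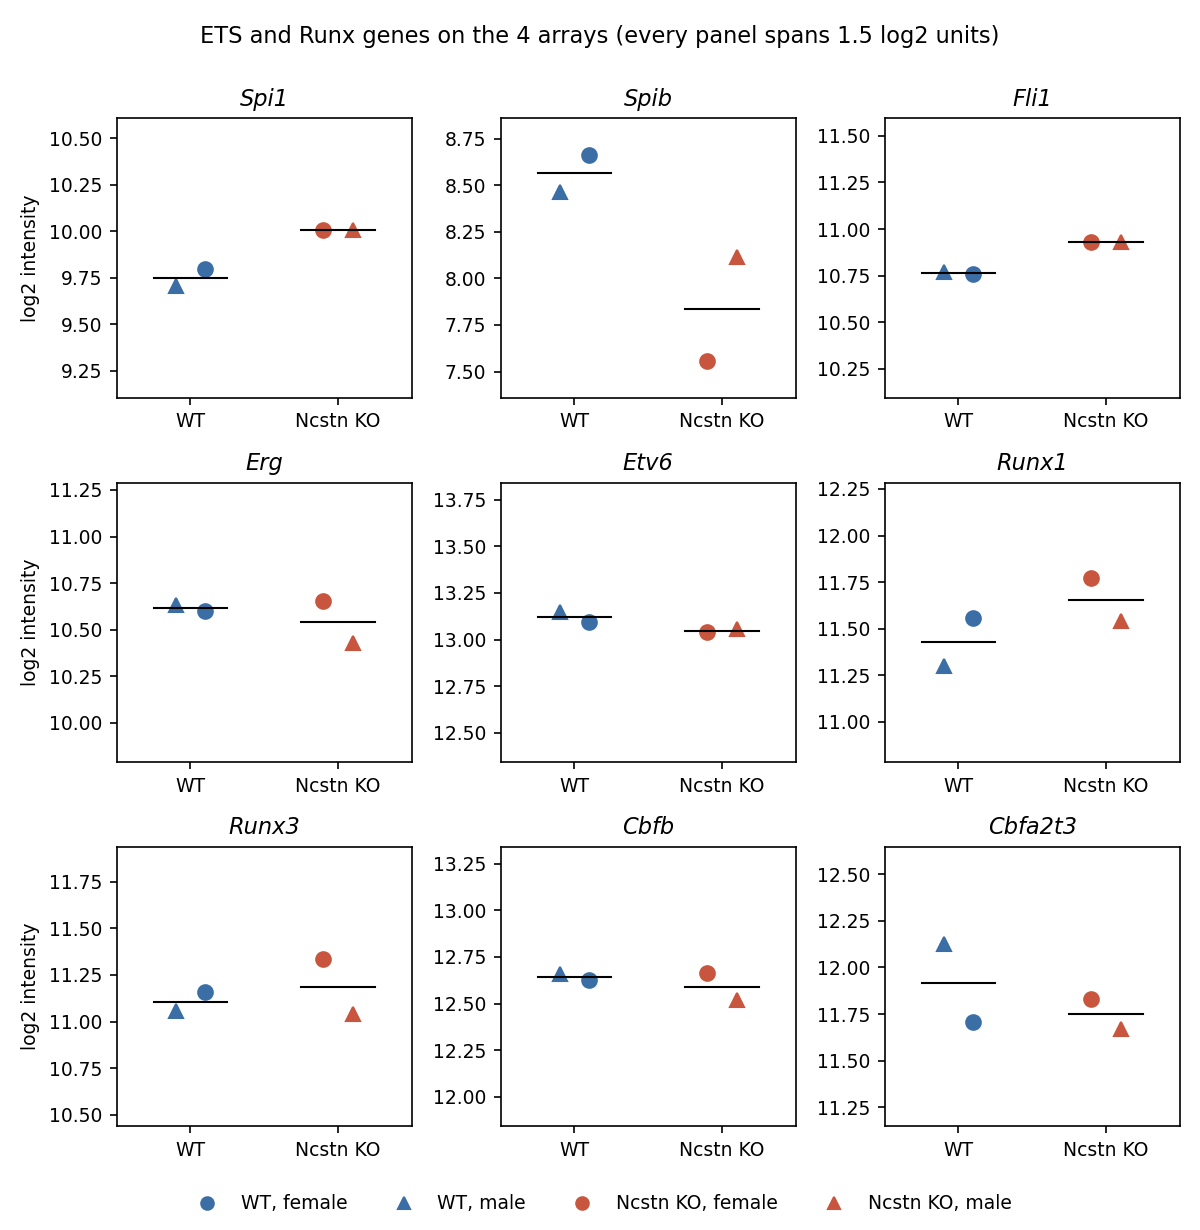
Log2 intensity of the brightest probe set of each of the 9 measured genes on the 4 arrays; each point is 1 mouse, circles are females, triangles are males, black bars are group means, and every panel spans 1.5 log2 units. Spi1 and Fli1 have both Ncstn KO arrays above both WT arrays, Spib and Etv6 have both below, and the other 5 genes overlap.

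Among the ETS genes, Spi1 was close to identical on the Ncstn KO arrays and higher there than in WT. Its values were 9.70 and 9.80 on the WT arrays and 10.01 and 10.01 on the Ncstn KO arrays. The change was 0.26 (SE 0.15; 95% interval -0.10 to 0.61; limma adjusted p = 0.862), with 0.21 between the females and 0.30 between the males. The interval includes both 0 and a difference of 0.61, so the data do not show that Spi1 was the same in the genotypes.

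Spib is the only ETS or Runx gene of the set whose interval for a single gene lay apart from 0, and it varied most within a group. Its values were 8.46 and 8.66 in WT and 7.56 and 8.11 in Ncstn KO. Both Ncstn KO arrays lay below both WT arrays, and the replicates of Ncstn KO differed from each other by more than those of WT, with an SD of 0.39 against 0.14 (n = 2 each). The change was -0.73 (SE 0.26; 95% interval -1.37 to -0.09, not adjusted for the number of genes; limma adjusted p = 0.671). Between the females it was -1.11 and between the males -0.35. Without Ncstn KO replicate 1 it was -0.45, and without Ncstn KO replicate 2 it was -1.01.

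Genes of the cell types that use Spib were set beside it. Among 9 measured B cell markers 5 lay above and 4 below WT, with a median change of 0.0065. Ms4a1, which encodes CD20, was at 7.79 and 7.94 in WT and at 5.74 and 5.74 in Ncstn KO, a change of -2.12 (limma adjusted p = 0.162). Ebf1, a factor that sets B cell identity, was at 9.02 and 8.60 in WT and at 6.60 and 8.72 in Ncstn KO. Like Spib, Ebf1 had its lowest value on Ncstn KO replicate 1, but unlike Spib its groups overlapped. Ms4a1 and Ebf1 had the most negative changes of the list and were chosen after their values were seen. Vpreb1, Pax5 and Cd22, also B lineage genes, had changes of 0.57, 0.39 and 0.30, and for Pax5 and Cd22 both Ncstn KO arrays lay above both WT arrays. Summed over the list, intensity was 4761 and 4871 in WT and 3750 and 7095 in Ncstn KO. The plasmacytoid and conventional dendritic cell list summed to 8026 and 8507 in WT and 8566 and 8327 in Ncstn KO. Tcf4, its brightest marker, was at 6166 to 6318 on the 4 arrays, so the sum says little about the others. Of the 10 markers 4 lay above WT. Cd7, Ccr9 and Siglech had changes of 1.52, 0.45 and 0.38, with both Ncstn KO arrays above both WT arrays. Bst2, at -0.30, had both below. Of all genes, 21.3% lay apart as higher and 12.8% as lower. In bulk RNA, fewer cells of a type and less RNA per cell cannot be told apart, and the part of either in the Spib difference was not tested.

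The profile of Spib over the 4 arrays, centred on its mean, was closest to those of Dzip1, Zfp697 and Bcl6b. The Euclidean distances were 0.077, 0.10 and 0.11 log2 units over 4 arrays. Their changes were -0.79, -0.70 and -0.66. With 4 arrays such likeness is a description only.

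The brightest probe sets of Fli1 and Erg, closely related ETS genes, had changes of opposite sign, each with a 95% interval that includes 0. With the arrays scaled to hybridization controls, which are added transcripts, both changes were below 0 (Fli1 -0.03, Erg -0.27). Fli1 was at 10.77 and 10.76 in WT and at 10.93 and 10.93 in Ncstn KO, a change of 0.17 (SE 0.11; 95% interval -0.11 to 0.44; limma adjusted p = 0.912). Its arrays did not overlap, and the female and male pairs gave 0.17 and 0.16. Its second, dimmer probe set did not show this. There the values were 7.87 and 8.45 in WT and 8.27 and 8.08 in Ncstn KO, a change of 0.01.

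Erg was at 10.63 and 10.60 in WT and at 10.65 and 10.43 in Ncstn KO, so that 1 Ncstn KO array lay above and 1 below WT. The change was -0.08 (SE 0.14; 95% interval -0.41 to 0.26). The second Erg probe set gave 0.05, again with overlapping arrays. Erg is the only gene of the 6 with several probe sets whose 2 brightest changed in opposite directions. Of all genes with 2 or more probe sets, 35.1% did so.

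Etv6 was slightly lower in Ncstn KO on both of its probe sets, and neither overlapped between the groups. The bright one was at 13.15 and 13.09 in WT and at 13.04 and 13.06 in Ncstn KO, a change of -0.07 (SE 0.06; 95% interval -0.22 to 0.08; limma adjusted p = 0.945). The other was at 10.80 and 10.76 in WT and at 10.62 and 10.43 in Ncstn KO, a change of -0.26. Both probe sets were lower in both sex pairs. With each array centred on its median, 1 of the 9 genes lay apart as lower in place of 2, as the bright Etv6 probe set then overlapped.

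**Figure D2:**
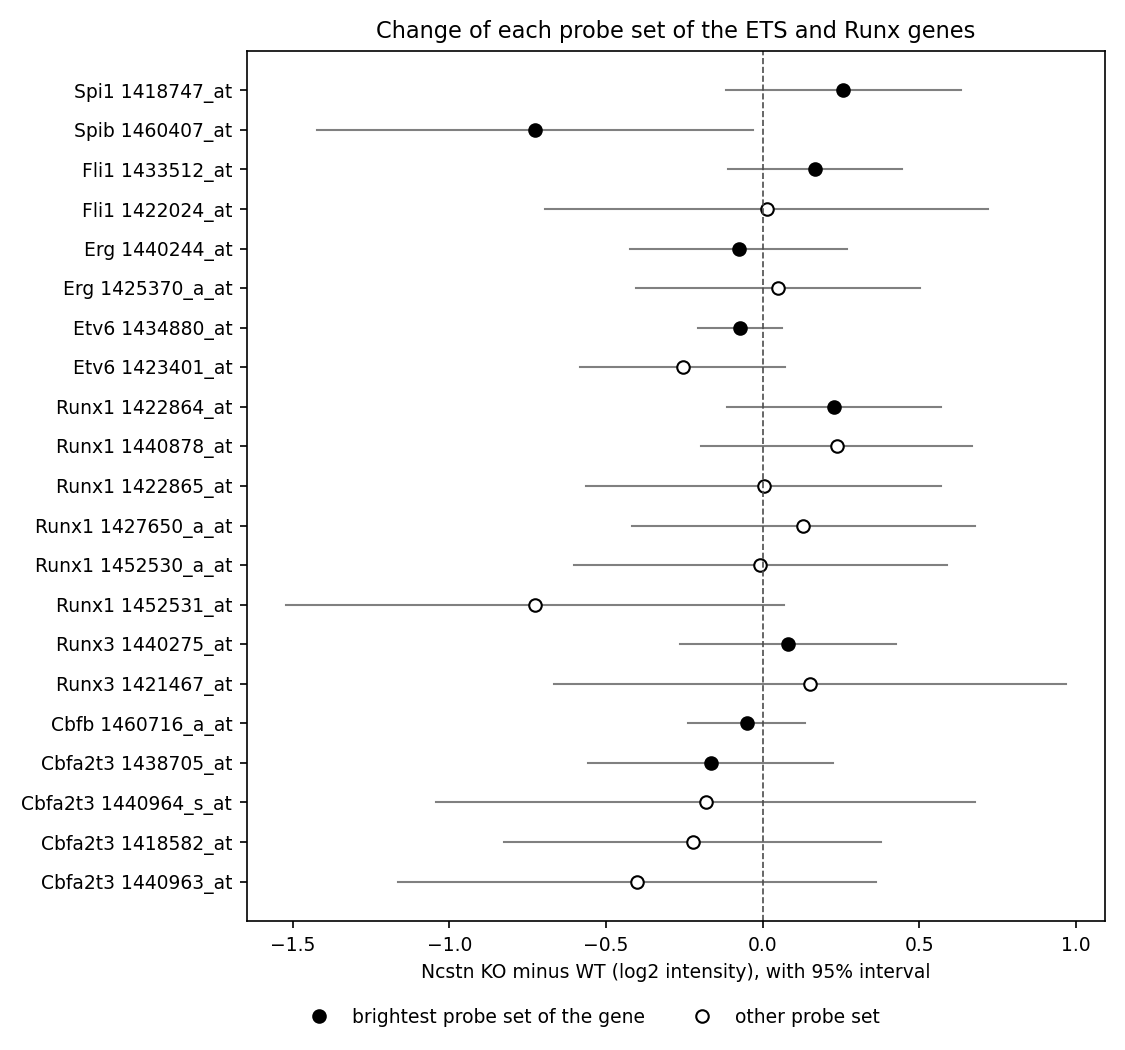
Change in log2 intensity, Ncstn KO minus WT, for each of the 21 probe sets of the 9 genes, with the 95% interval of the limma fit over all probe sets; filled points are the brightest probe set of a gene. The interval includes 0 for 20 of the 21, the exception being Spib, and the dimmest Runx1 probe set lies far below the other 5 of that gene.

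Of the Runx genes, Runx1, a factor required for the first stem cells and mutated in human leukemia, was represented by 6 probe sets. The brightest was at 11.30 and 11.56 in WT and at 11.77 and 11.54 in Ncstn KO. The groups overlapped because WT replicate 2 lay above Ncstn KO replicate 2. The change was 0.23 (SE 0.14; 95% interval -0.10 to 0.56; limma adjusted p = 0.878), with 0.21 between the females and 0.24 between the males. Without WT replicate 1 it was 0.10, without Ncstn KO replicate 1 it was 0.11, and without WT replicate 2 it was 0.36.

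The Runx1 probe sets disagreed. The next brightest gave 0.24, with 0.48 between the males and -0.0035 between the females. The following 3 gave 0.0033, 0.13 and -0.0071. The dimmest was at 6.14 and 6.21 in WT and at 5.12 and 5.78 in Ncstn KO, a change of -0.73 (limma adjusted p = 0.964 over all probe sets), with the groups apart. As the mean of all 6 probe sets the change of Runx1 was -0.02, so its direction rests on the choice of probe set. The sources used here do not say which transcripts of Runx1 each probe set detects.

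Runx3, which acts in T cells and in dendritic cells, was at 11.05 and 11.16 in WT and at 11.33 and 11.04 in Ncstn KO. The Ncstn KO arrays lay above and below the WT arrays. The change was 0.08 (SE 0.14; 95% interval -0.25 to 0.41), and the second, dim Runx3 probe set gave 0.15 with the same overlap.

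Cbfb, the partner of all Runx proteins, was among the steadiest. It was at 12.66 and 12.62 in WT and at 12.66 and 12.52 in Ncstn KO, a change of -0.05 (SE 0.08; 95% interval -0.25 to 0.14). The unadjusted interval does not reach a 2-fold difference, and the same is true of the brightest probe sets of Etv6, Erg, Fli1, Spi1, Runx1, Runx3 and Cbfa2t3. The intervals of the dimmest Runx1 probe set (to -1.52) and of 2 other Cbfa2t3 probe sets (to -1.16 and -1.04) do.

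Cbfa2t3 was lower in Ncstn KO on the mean of each of its 4 probe sets, and the groups overlapped on 3 of them. The brightest was at 12.12 and 11.71 in WT and at 11.83 and 11.67 in Ncstn KO, a change of -0.17 (SE 0.15; 95% interval -0.54 to 0.21; limma adjusted p = 0.959). Without WT replicate 1 the change was 0.04. The other 3 gave -0.18, -0.22 and -0.40. For the last Ncstn KO replicate 1 was at 8.08 while the other arrays were at 8.86 to 8.87.

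Counted over all 21 probe sets of the 9 genes, 10 lay above and 11 below WT, and 7 did not overlap between the groups, 2 higher and 5 lower. The share of all probe sets without overlap was 32.5%. The limma fit over 45037 probe sets called 0 of the 21 and 0 in all, or 0%.

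The female and male pairs moved in opposite directions for 4 of the 9 genes, Erg, Runx3, Cbfb and Cbfa2t3, as did 44.3% of all genes. Spi1, Fli1 and Runx1 were higher in both pairs, and Spib and Etv6 lower in both.

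**Figure D3:**
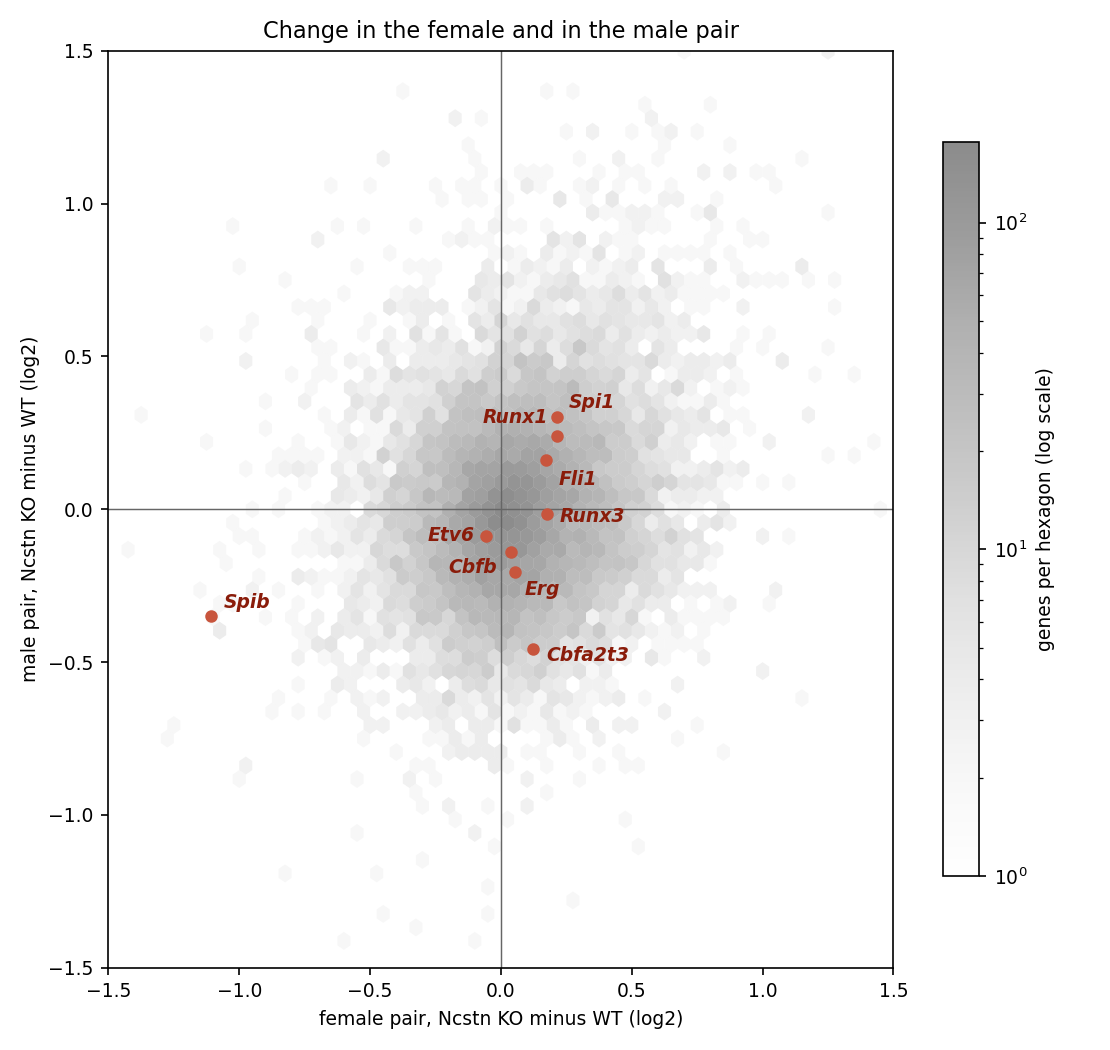
Change in log2 intensity, Ncstn KO minus WT, in the female pair (horizontal) and the male pair (vertical); red points are the 9 genes, grey hexagons count all 18193 genes on a log scale, and 329 genes beyond 1.5 on either axis lie outside the frame. Spib, at -1.11 and -0.35, stands away from the other 8, whose changes lie between -0.46 and 0.30 in either pair.

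In the wider ETS family, of 19 measured genes of 21 listed, 12 lay above and 7 below WT, beside 10150 above and 8041 below of all 18193 genes. Of the 19, 0 passed, and changes ran from -0.20 to 0.30 with a median of 0.04. The arrays did not overlap for 1 of the 19, as higher, beside 21.3% of all genes, and for 0 as lower, beside 12.8%. With the arrays scaled to hybridization controls, which are added transcripts, 2 of the 19 lay above WT and the median was -0.15. With the mean of all probe sets of a gene 8 lay above WT and the median was -0.04. The gene without overlap was Etv5, a target of fibroblast growth factor signalling (9.97 and 10.10 in WT, 10.49 and 10.15 in Ncstn KO, change 0.28, limma adjusted p = 0.884). Ets2 had a change of -0.20, Elk4 of 0.10 and Elf1 of -0.08.

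Genes whose products work in one complex with Runx factors or ETO2 were measured for 22 of 24 listed. Of these 14 lay above and 8 below WT, beside 10150 above and 8041 below of all 18193 genes. Their median was 0.06 and 0 passed. The arrays did not overlap for 7 as higher and 1 as lower, beside 21.3% and 12.8% of all genes. With hybridization-control scaling 4 of the 22 lay above WT and the median was -0.13. Gata2, a zinc finger factor of stem cells that shares enhancers with Runx1, Fli1 and Erg, was at 12.53 and 12.42 in WT and at 12.78 and 12.78 in Ncstn KO. Its change was 0.31 (SE 0.07; limma adjusted p = 0.433). Gfi1b, a repressor of the megakaryocyte and erythroid lineages, was at 8.81 and 8.93 in WT and at 9.82 and 9.24 in Ncstn KO, a change of 0.66 (SE 0.24; limma adjusted p = 0.671). The basic helix-loop-helix genes Tal1 and Lyl1 had changes of 0.18 and 0.11, each with both Ncstn KO arrays above both WT arrays.

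**Figure D4:**
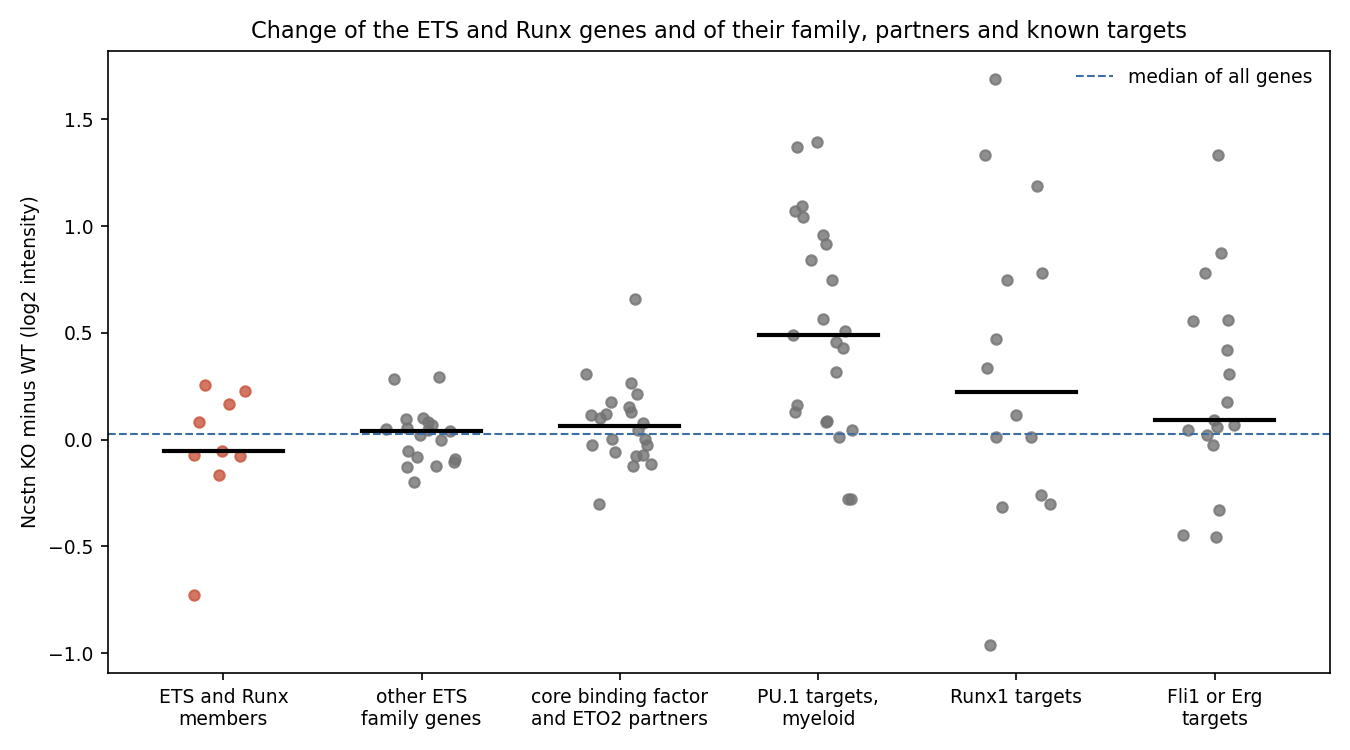
Change in log2 intensity, Ncstn KO minus WT, of each measured gene (points) in the 9 ETS and Runx genes and in 5 lists of relatives, partners and known targets; black bars are list medians and the dashed line is the median of all genes, 0.02. The lists of PU.1, Runx1 and Fli1 or Erg targets, chosen with earlier results of these data known, have medians of 0.49, 0.22 and 0.09. The medians of the factors themselves, their relatives and their partners lie between -0.05 and 0.06.

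Known targets of the factors were described by 3 lists, all chosen with earlier results of these data known, so that their counts are no independent evidence of a direction. The background for their counts above WT is 10150 of all 18193 genes. Of 23 measured genes known as PU.1 targets in myeloid cells, 21 lay above WT and 0 passed. Their median change was 0.49, against 0.02 for all genes and 0.26 for Spi1 itself. The arrays did not overlap for 15 as higher and 1 as lower, beside 21.3% and 12.8% of all genes, and an unadjusted p under 0.05 was found for 13 as higher, beside 4.96%. Leaving out 1 array in turn gave medians of 0.41 to 0.58 with 17 to 22 genes above WT. Scaled to the hybridization controls, the median was 0.29 with 15 of 23 above WT, 12 higher and 3 lower without overlap. Fcgr3, an IgG receptor gene, was at 9.16 and 8.90 in WT and at 10.09 and 10.75 in Ncstn KO, a change of 1.40 (SE 0.25; limma adjusted p = 0.287). Csf1r, the receptor gene for macrophage colony-stimulating factor, was at 9.61 and 9.92 in WT and at 10.48 and 10.55 in Ncstn KO, a change of 0.75 (SE 0.16; limma adjusted p = 0.377). Csf2rb, the shared chain of the receptors for interleukin 3 and granulocyte-macrophage colony-stimulating factor, had a change of 0.49 and Ly86 of 1.04.

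Markers of other cells were set beside these targets. Of the 23 PU.1 targets, 5 also stood in a marker list. All 14 measured mature neutrophil and monocyte markers had means above WT, by 0.75 at the median, and 8 did not overlap, beside 21.3% of all genes as higher. Without WT replicate 2 the number above WT was 9 and the median 0.52, and without Ncstn KO replicate 2 they were 9 and 0.44. Without Ncstn KO replicate 1 the median was 1.08, and with hybridization-control scaling 10 lay above WT. Their summed intensity overlapped between the groups, at 56764 and 45325 in WT and 53857 and 69939 in Ncstn KO. The summed granulocyte-macrophage progenitor markers did not overlap, at 33211 and 34568 in WT against 49872 and 48984 in Ncstn KO, with 9 of 9 above WT. Of the 9 genes, 8 did not overlap as higher, beside 21.3% of all genes. The part of either cell type in the higher values of PU.1 targets and of Spi1 was not tested.

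Of 14 measured genes known as Runx1 targets 10 lay above WT, with a median of 0.22, 8 without overlap as higher, beside 21.3% of all genes, and 0 passing. With hybridization-control scaling 7 of the 14 lay above WT and the median was 0.029, with 5 higher and 4 lower without overlap. Elane, the neutrophil elastase gene, was at 11.23 and 11.20 in WT and at 12.30 and 12.51 in Ncstn KO, a change of 1.19 (SE 0.11; limma adjusted p = 0.117). Itga2b, the platelet integrin gene, was at 7.56 and 8.02 in WT and at 9.28 and 8.97 in Ncstn KO, a change of 1.33 (SE 0.25; limma adjusted p = 0.296). Cebpa, which encodes a factor of granulocyte commitment, had a change of 0.34 and both Ncstn KO arrays above both WT arrays. Of the 14 genes, 7 also stood in a marker list.

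Of 17 measured genes known as Fli1 or Erg targets in megakaryocytes and endothelium, 13 lay above WT with a median of 0.09 and 0 passed. The arrays did not overlap for 6 as higher and 1 as lower, beside 21.3% and 12.8% of all genes. With hybridization-control scaling 7 of the 17 lay above WT and the median was -0.10, with 3 higher and 5 lower without overlap. The median was 0.18 without WT replicate 1 and 0.16 without WT replicate 2. It was 0.067 without Ncstn KO replicate 1 and 0.14 without Ncstn KO replicate 2. Besides Itga2b and Gata2, Gp9, a platelet glycoprotein gene, was at 8.73 and 9.11 in WT and at 9.36 and 9.60 in Ncstn KO, a change of 0.56 (limma adjusted p = 0.695). Icam2, an endothelial and leukocyte adhesion gene, was at 11.09 and 11.12 in WT and at 10.77 and 10.56 in Ncstn KO, a change of -0.45 (limma adjusted p = 0.544). Summed megakaryocyte and platelet markers were at 2558 and 4165 in WT and at 6669 and 6592 in Ncstn KO, with 6 of 9 above WT. Of the 9, 5 did not overlap as higher, beside 21.3% of all genes. Selp, the brightest of the list in Ncstn KO, was at an intensity of 858 and 789 in WT and 3053 and 3224 in Ncstn KO. It weighs most in the Ncstn KO sums, so their distance from WT says little about the other markers. Summed endothelial and stromal markers overlapped, at 4250 and 4293 in WT and 3758 and 4537 in Ncstn KO. Of these 11 markers, 4 lay above WT and 0 passed. Without overlap were 2 as higher and 4 as lower, beside 21.3% and 12.8% of all genes. Emcn and Cxcl12, among the lower, had changes of -1.40 and -2.17. Pdgfrb and Pecam1, the higher ones, had changes of 0.45 and 0.48. Levels within the list differed. Cdh5 and Kdr were dim, at 3.73 to 4.02 and 5.18 to 5.31 on all 4 arrays, whereas Tie1 was at 9.76 to 9.94 and Pecam1 at 8.44 to 9.10. Emcn was at 9.76 and 9.89 in WT and at 8.32 and 8.52 in Ncstn KO.

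**Figure D5:**
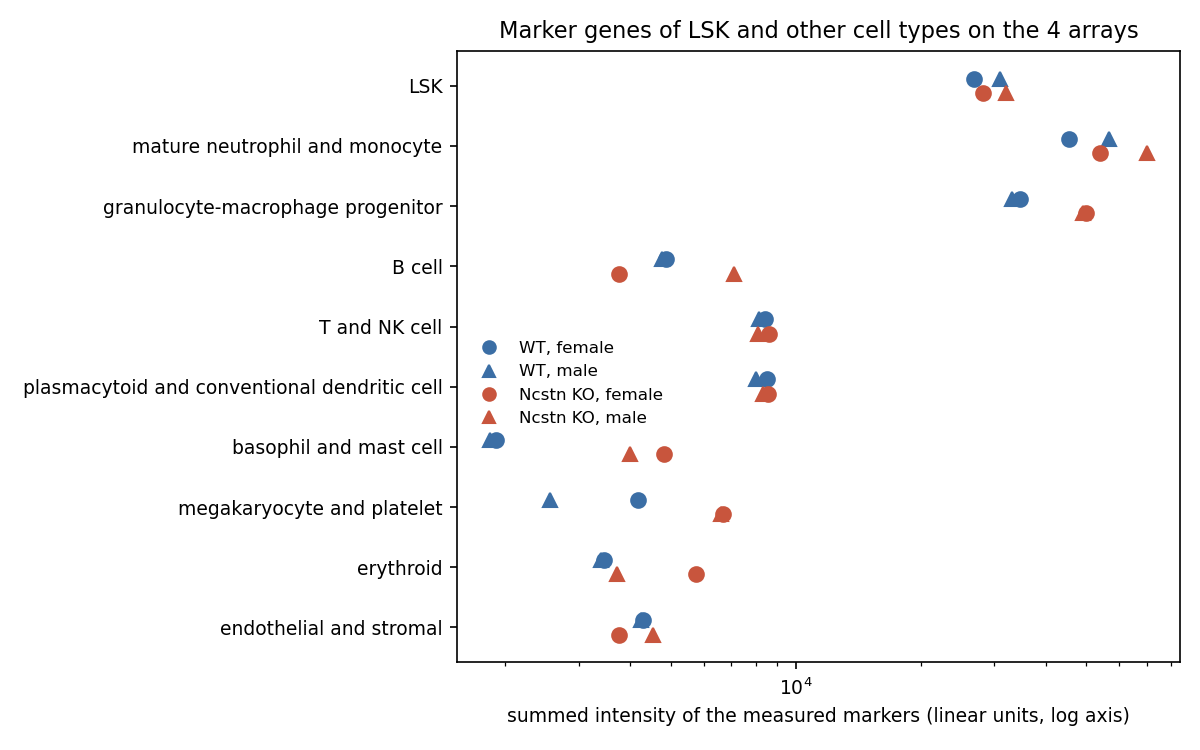
Summed linear intensity of the measured markers of 10 cell types on the 4 arrays (log axis; circles are females, triangles are males, blue is WT and red is Ncstn KO). Sums are compared between arrays within a row, since the brightest markers dominate each sum; granulocyte-macrophage progenitor, basophil and mast cell, megakaryocyte and platelet, and erythroid sums are higher on both Ncstn KO arrays, and the other 6 overlap.

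The remaining marker lists gave these values. LSK markers had 4 of 8 above WT and a median change of 0.0024, with Slamf1, a stem cell surface gene, at 0.83 (limma adjusted p = 0.633). T and NK cell markers had 3 of 11 above WT and a median of -0.10. Erythroid markers had 5 of 8 above WT with a median of 0.10. Without overlap were 2 as higher and 3 as lower, beside 21.3% and 12.8% of all genes. Alas2, Trim10 and Slc4a1, the lower ones, had changes of -1.30, -1.10 and -1.05. Car1 and Rhag, the higher ones, had changes of 0.86 and 1.04. Car1 was at an intensity of 3785 and 2415 in Ncstn KO, against 1384 and 1995 in WT. It was the brightest of the list and weighs most in the sum. Basophil and mast cell markers, whose cells use Gata2 and Runx1, had 6 of 6 above WT and a median of 1.33. All 6 were without overlap, beside 21.3% of all genes as higher. Mcpt8, a basophil protease gene, was at 10.16 and 10.26 in WT and at 11.27 and 11.20 in Ncstn KO.

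The hybridization controls, bacterial and phage transcripts added in fixed amounts, were brighter on the Ncstn KO arrays by 0.195 on the log2 scale. Scaling the arrays to them moved every gene down alike, the median of all genes from 0.02 to -0.17, and the members' median to -0.25. Fli1 then had a change of -0.03 and Runx3 of -0.11, the reverse of their direction above, whereas Spi1 (0.06), Runx1 (0.03) and Spib (-0.92) kept theirs.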

How the data were processed

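RNA of 4 mice, 2 per genotype, had been amplified from 5 ng and hybridized to Affymetrix arrays, per the labels' protocols. The deposited values are intensities on a linear scale, ranging from 3.32 to 23643; per the submitters' processing notes the authors used RMA (background correction, quantile normalization and probe summary). They were taken to log2 here. A log2 scale had been assumed for the deposited values when the tests were set, and the test was kept. Of 45101 probe sets 64 controls were left out. The platform annotation gave 34945 probe sets 1 gene, 932 several and 9160 none. The brightest probe set over all arrays stood for each of 18193 genes. Genotypes were compared with limma 3.58.1 in R 4.3.3 (lmFit, eBayes with a variance trend, 2 residual degrees of freedom), with Benjamini-Hochberg adjustment over all genes and a threshold of 0.05. A second fit covered all 45037 probe sets. The fit was tested on simulated data.

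The 2 mice of a group differed in sex, so the arrays are of separate animals. The number of arrays limits the precision. WT replicate 1 and Ncstn KO replicate 2 were male, and the other mice female. Same-numbered arrays did not deviate together (correlation -0.24). Same-numbered mice differ in sex, so this value cannot decide whether the numbers pair the arrays. Sexes were compared as pairs. The genes named are all members, Ncstn, Kit, up to 4 genes of the smallest unadjusted p in each list of relatives, partners and targets, and the 3 genes closest in profile to the member of widest range. The other cell type markers named were chosen after their values were seen. The members and lists were chosen with earlier results of these data known. Promoters come from RefSeq (GRCm38.p6). Alternatives were other scalings, probe set summaries, filters, a pseudocount of 16, blocks and leaving out each array.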

Additional observations from a re-analysis of the deposited data

Results flagged for a closer look

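For 4 of the 9 measured genes the female and the male pair, Ncstn KO minus WT on the log2 scale, had opposite signs, as 44.3% of all genes did. The difference between the sexes was not tested, because each pair holds 1 mouse of each genotype. Erg was at 0.052 between the females and -0.206 between the males. Runx3 was at 0.177 between the females and -0.0147 between the males. Cbfb was at 0.0374 between the females and -0.14 between the males. Cbfa2t3 was at 0.124 between the females and -0.456 between the males.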

How the results depend on the processing

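The limma test called 0 of the 9 genes under each alternative run, and 0 of their probe sets under each run on probe sets, which covered 21, or 19 among those at or above the median level, and were not run for the mean of all probe sets. The number of all genes passing went from 0 to 3 with quantile normalization, 62 with each array centred on its median, 2 among genes at or above the median level, and 0 to 27 when 1 array was left out. Without Ncstn KO replicate 1 it was 23 and without Ncstn KO replicate 2 it was 27. Genes at least 2-fold apart without overlap numbered 311, against 80 among genes at or above the median level, 190 with a pseudocount of 16, and 419 to 566 when 1 array was left out. Scaled to the hybridization controls, that count split into 111 higher and 168 lower, in place of 217 and 94. The median change of the members, -0.05, became -0.247 with that scaling and ran from -0.0693 to 0.0364 when 1 array was left out. With that scaling Fli1 was at -0.0287 and Runx3 at -0.1145, and as the mean of all probe sets Runx1 was at -0.0227. Leaving out 1 array gave Erg from -0.19 to 0.0364, Runx3 from -0.0662 to 0.228, Cbfb from -0.122 to 0.0195 and Cbfa2t3 from -0.376 to 0.0441. Spi1, Spib, Fli1, Etv6 and Runx1 kept their direction when any 1 array was left out. With the replicate number as a block 0 genes passed, 920 had an unadjusted p under 0.05 in place of 1237, and the lowest adjusted p among the members was 0.952. With sex added to genotype in the model, a planned run, 0 passed, 1591 had an unadjusted p under 0.05, and the lowest adjusted p among the members was 0.542. The crossed pairing as a block, chosen after seeing the data, pairs mice of the same sex. It is therefore the same model and gave the same values. The causes of these shifts were not tested.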
